A study of Mus musculus with 15 samples.

Results

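Testes of ICR mice that had received a lentivirus carrying shRNAs against the M1 muscarinic receptor (Chrm1), labelled M1, were compared with untreated control testes, labelled Con, gene by gene. The comparison used 6 of the 15 libraries of the study, 3 in each group, and covered the 14514 of 23510 gene IDs whose mean FPKM over the 15 libraries was 1 or more. FPKM is the number of fragments per kilobase of transcript, scaled by the mapped fragments of the library, and all differences were taken on log2(FPKM + 1), M1 minus Con. The other libraries were 3 each of a non-targeting lentiviral control (MNC) and of knockdowns labelled M3 and M5. The virus was injected into the testes of mice 5 weeks of age, as a mixture of 3 shRNAs for each receptor, and the testes were collected 10 days later. Age and handling of the Con mice were not given in the sources used here. M1 and Con testes therefore differed by the injection, the lentiviral vector and the shRNAs together, and these cannot be told apart in this comparison. The MNC libraries share the injection and the vector with M1. Their values are given beside those of some genes only, and for some lists in the comparison of M1 with MNC below. ICR is an outbred stock, so mice within a group can differ in genotype. The labels give testis as the tissue, while their extraction text speaks of sperm, and the p-values measure only the spread between these libraries, since nothing in the labels states that each came from its own animal.

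In the seminiferous tubules of the testis, spermatogonia divide, enter meiosis as spermatocytes and become round and then elongating spermatids, all held by Sertoli cells whose junctions form the blood-testis barrier. Leydig cells and macrophages lie between the tubules, and the healthy tubule is kept largely free of immune cells. Muscarinic receptors are receptors for acetylcholine, and the M1, M3 and M5 types couple through Gq to phospholipase C and calcium release.

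Summed FPKM ranged from 470243 to 483232 in the Con libraries and from 500468 to 509483 in the M1 libraries. Pearson's r of log2(FPKM + 1) between libraries, taken across genes, was 0.987 to 0.993 within Con, 0.983 to 0.99 within M1 and 0.97 to 0.981 between them. The table used here gives FPKM alone, so the depth of each library is unknown. The libraries carried the germ cell program of testis: all 28 elongating spermatid and all 28 spermatocyte markers passed the filter.

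The targeted transcript was near the limit of measurement in both groups. Chrm1 was at 0.15, 0.09 and 0.15 FPKM in Con and at 0.14, 0.11 and 0.09 FPKM in M1, and the groups overlapped. The difference was -0.02 on the log2 scale, with p = 0.6 in a two-sided exact permutation test whose smallest possible p was 0.1 with 3 libraries against 3. The MNC libraries were at 0.1, 0.11 and 0.11 FPKM, so a knockdown of the Chrm1 transcript was not detectable at these levels. Of the other muscarinic receptors, Chrm2, Chrm3 and Chrm5 were also below the filter. Chrm4, which couples to Gi, was at 2.91, 2.75 and 3.09 FPKM in Con and at 3.25, 2.99 and 4.44 FPKM in M1. Its log2 difference of 0.21 did not pass the test (limma adjusted p = 0.224).

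Between M1 and Con, 4969 genes (34.2% of those tested) were called at a limma adjusted p under 0.05, of which 1494 (10.3%) were higher and 3475 (23.9%) were lower in M1. Most of these differences were small: 4178 of the called genes differed by less than 0.5 on the log2 scale. A log2 difference of 1 or more in size was found for 133 genes called higher and 41 genes called lower. The groups did not overlap for 4968 of the called genes, and for 7782 of all genes tested (53.6%). The median log2 difference of all genes was -0.115, and the split between directions depended on how this shift was treated. Centring each library on its median raised every log2 difference by about 0.12. It called 2234 genes higher (15.4%) and 837 lower (5.77%), so that higher genes made up 72.7% of the calls against 30.1% without centring. Quantile normalization gave 45.0% and trimmed mean scaling 61.9%. Under all 4 scalings (values as deposited, centred, quantile normalized and scaled by trimmed mean), 2081 genes were called in the same direction, 1246 higher (8.58%) and 835 lower (5.75%). Counts of list members are from the values as deposited, unless a scaling is named, and stand beside 10.3% higher and 23.9% lower over all genes. The number of calls also rested on single libraries, falling to 1259 without Con replicate 1, 2036 without M1 replicate 1, 2577 without M1 replicate 3 and 2736 without Con replicate 2.

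**Figure D1:**
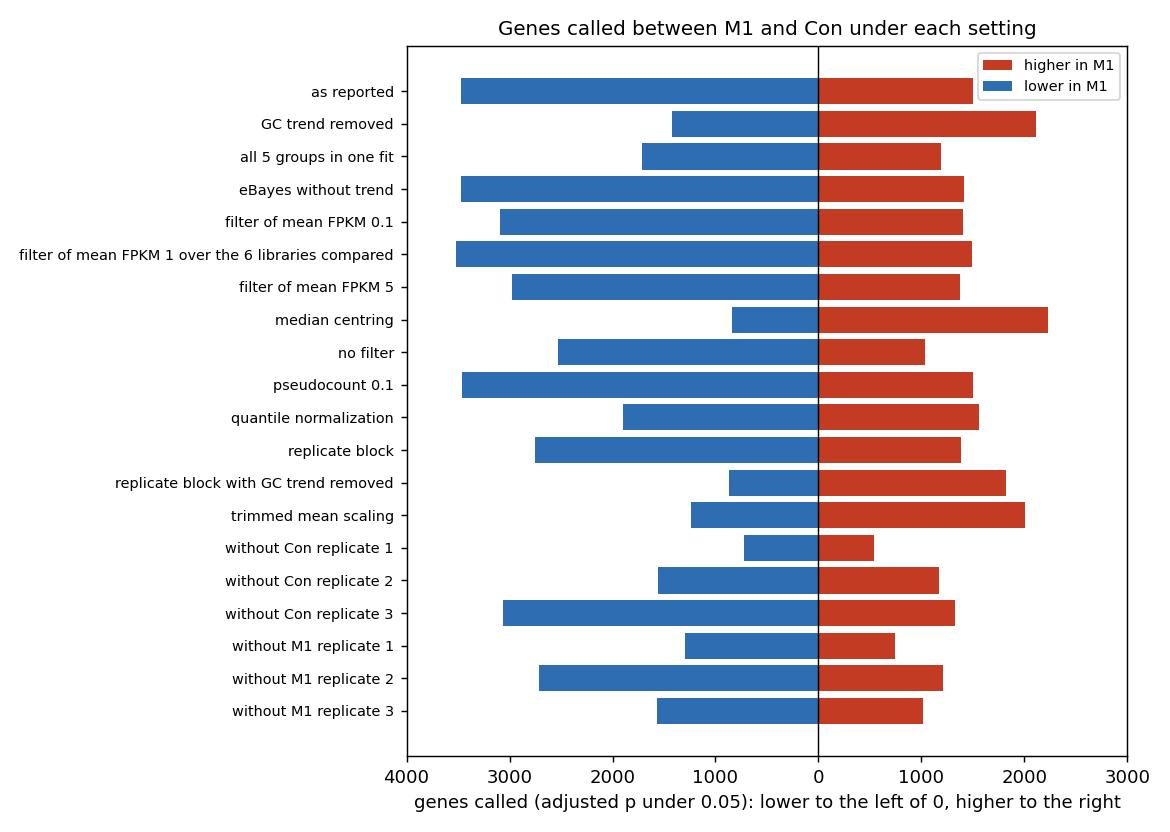
Number of genes called between M1 and Con (horizontal axis, adjusted p under 0.05) under each way of processing the values (vertical axis), with genes lower in M1 drawn to the left of 0 and genes higher in M1 to the right. The top bar is the comparison as reported, with 1494 genes higher and 3475 lower, and the balance turns to more higher than lower genes after median centring, trimmed mean scaling or removal of the GC trend (with or without the replicate block), a step that also centres each library.

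The fall of Coil had the lowest p of the comparison. Coil encodes coilin, the scaffold protein of Cajal bodies in the nucleus, and lies on chromosome 11 from 88973935 to 88991613 (RefSeq, GRCm38.p6). It was at 53.2, 51.1 and 56.9 FPKM in Con and at 0.7, 0.52 and 0.79 FPKM in M1. The log2 difference was -5.04 with a standard error of 0.08 (adjusted p = 3.86e-06), and it was called under all 19 alternative fits. Coil was also low in the MNC libraries (0.96, 0.47 and 1.06 FPKM) and in the M5 libraries (0.64, 0.58 and 0.23 FPKM). In the M3 libraries it was at 1.4, 47.6 and 4.73 FPKM, so that M3 replicate 2 was near the Con level. Scpep1, which encodes a lysosomal serine carboxypeptidase, lies 18.5 kb from Coil and fell by 2.62 on the log2 scale (adjusted p = 0.00126). It was at 7.1, 8.25 and 6.37 FPKM in Con, at 0.27, 0.48 and 0.27 FPKM in M1, and at 5.06 FPKM in M3 replicate 2. The only other genes tested within 500 kb of Coil were Akap1 and Msi2. Both were called higher in M1, by 0.45 and 0.74 on the log2 scale. Akap1 and Msi2 were picked for their position, after their values were seen.

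Zp3r showed the largest rise of a named gene. Its product is an acrosomal protein of sperm that binds the zona pellucida. It was at 0.34, 0.23 and 0.08 FPKM in Con and at 10.4, 66.2 and 43.4 FPKM in M1, a log2 difference of 4.74 with a standard error of 0.61 (adjusted p = 0.00873). The 3 M1 libraries differed among themselves by several fold but all lay above Con, as did the MNC libraries at 7.55, 38.4 and 65.9 FPKM. Tex52, a testis-expressed gene, was listed at 0 in all Con libraries and at 2.77, 3.62 and 4.59 FPKM in M1 (adjusted p = 0.00524). In MNC it was at 2.33, 4.32 and 5.11 FPKM. Zp3r and Tex52 were under 1 FPKM in every Con library and passed the filter only through libraries in which they were high. Their calls are therefore no support for a direction. Abcc3, an exporter of organic anions, was at 4.43, 18.3 and 4.23 FPKM in Con and between 32.5 and 34.3 FPKM in M1 (adjusted p = 0.0237). Here Con replicate 2 stood between the other Con libraries and M1. The unnamed RIKEN gene 2310061I04Rik was at 0.36, 1.86 and 0.48 FPKM in Con and at 6.76, 31.8 and 5.17 FPKM in M1 (adjusted p = 0.0248).

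Among the other large falls, several genes varied widely within Con. Tedc1, which encodes a protein of the tubulin epsilon and delta complex, went from 15.6, 9.66 and 15.7 FPKM in Con to 1.44, 3.47 and 6.4 FPKM in M1. It was at 8.49, 12 and 12.2 FPKM in MNC, and its M1 against MNC difference of -1.45 did not pass the test (adjusted p = 0.819). Rsph3b, a radial spoke gene with a close paralog, was at 145, 93.6 and 143 FPKM in Con and at 22.5, 69.8 and 20.9 FPKM in M1. Gm21477, a predicted gene of the Y chromosome, where near-identical copies are common, was at 19.7, 5.03 and 6.4 FPKM in Con and listed at 0 in every M1 and MNC library. AY761185, Cuzd1 and the kallikrein gene Klk1b24 fell by 2.30, 1.78 and 1.64 on the log2 scale. Genes with near-identical copies can share reads, and how the counting split them is not stated.

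Of IDs without a gene name, BGI_novel_G000367 was listed at 0 in Con and at 34.9, 33.5 and 3.72 FPKM in M1. It passed the filter only through libraries in which it was high. BGI_novel_G000384 was at 0, 16.3 and 1.57 FPKM in Con and at 41.2, 34.8 and 22.6 FPKM in M1, and it was called in only 3 of 17 alternative fits. BGI_novel_G001926 fell from 26.6, 8.76 and 16.9 FPKM in Con to 0 in every M1 library, and BGI_novel_G002055 fell by 2.05 on the log2 scale.

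**Figure D2:**
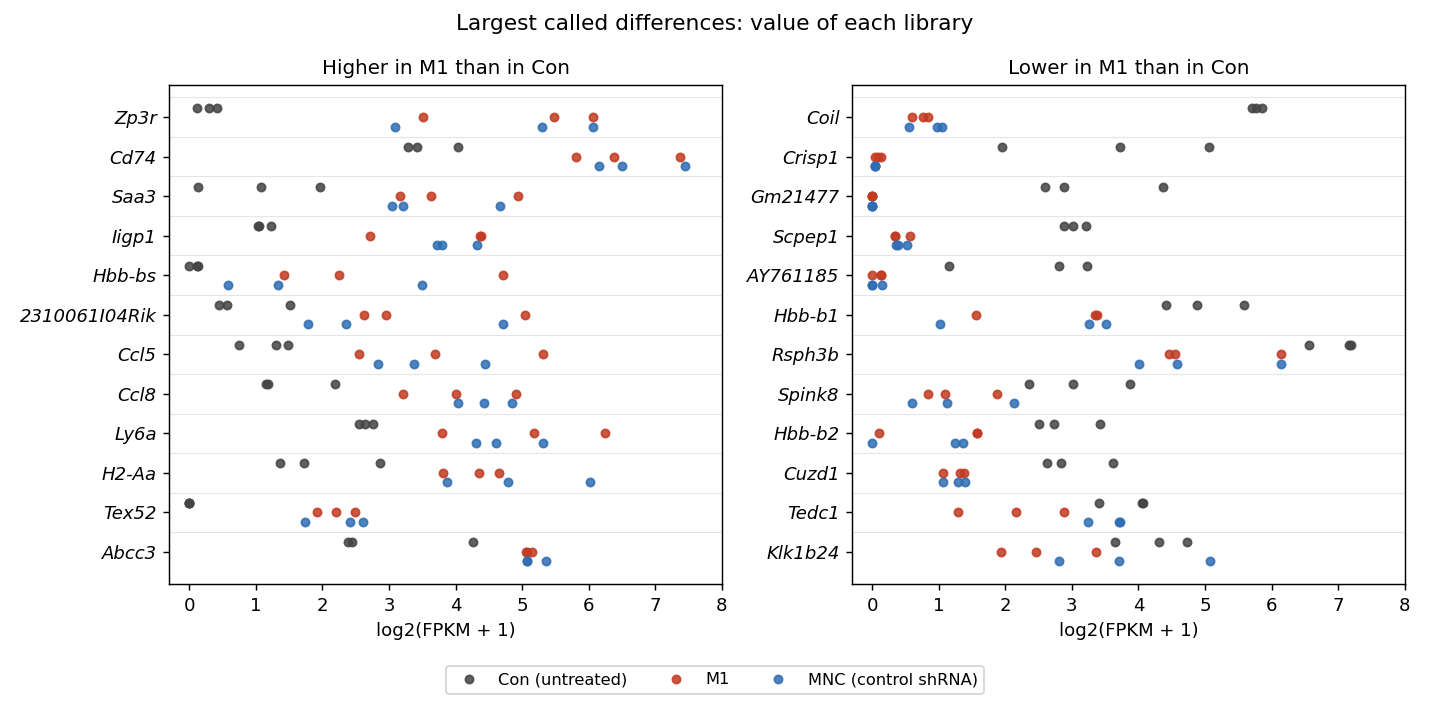
Values of each library, as log2(FPKM + 1) on the horizontal axis, for the 12 named genes with the largest called rise in M1 (left) and the 12 with the largest called fall (right). Each point is a library of Con, M1 or MNC; M1 and Con do not overlap for any of these genes, and the MNC points lie near the M1 points for most of them, with Tedc1 and Klk1b24 as exceptions.

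Most of the interferon response and antigen presentation genes that were called were higher in M1 than in Con. Interferons act in part through interferon regulatory factors, and the proteins they induce include GTPases that attack intracellular microbes and the machinery that loads peptides onto class I molecules. Of 49 interferon-stimulated genes listed, 46 were in the table and 37 passed the filter. Of these 37, 13 were called higher and 1 was called lower (10.3% and 23.9% of all genes tested), with a median of 0.37 beside -0.115 for all genes. A gene near 0 in Con could pass the filter only through libraries in which it was high, so these counts describe the members that passed and no more. The number called higher was 18, 13 and 12 after median centring, quantile normalization and trimmed mean scaling. It fell to 1 without Con replicate 1, to 3 without Con replicate 2, Con replicate 3, M1 replicate 1 or M1 replicate 2, and rose to 21 without M1 replicate 3. In bulk tissue, more cells of a type and more RNA per cell cannot be told apart.

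Of the signalling members, Irf1, an interferon regulatory factor, was at 2.23, 2.39 and 1.82 FPKM in Con and at 7.85, 7.22 and 2.72 FPKM in M1. Its log2 difference was 1.04 (limma adjusted p = 0.049), and it was not called under all 4 scalings. Irf7, a regulatory factor of the same family, differed by 0.82 (limma adjusted p = 0.0381). M1 replicate 3 had the lowest value of both genes within M1. The interferon-inducible GTPases had the largest differences of the list. Iigp1 went from 1.34, 1.04 and 1.06 FPKM in Con to 19.8, 19.6 and 5.59 FPKM in M1, a log2 difference of 2.72 with a standard error of 0.44 (adjusted p = 0.011). Igtp, Irgm1 and Gbp2 differed by 1.32, 1.37 and 1.45, and in each of them M1 replicate 3 was again the lowest M1 library. The antiviral genes of the same list gave smaller values. Isg15, a ubiquitin-like protein, was at 1.1, 1.62 and 0.98 FPKM in Con and at 1.98, 2.82 and 1.25 FPKM in M1, and Ifit3, an inhibitor of viral translation, differed by 0.50. Neither passed the test (adjusted p = 0.16 and 0.12). The called lower member was Parp12, at -0.24, and it was not called after centring.

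Sequence before the start site was compared for these genes because a short element is known to bind factors of this response. It is the core of the interferon-stimulated response element, bound by interferon regulatory factors, searched as GAAA, any 2 bases and GAAA. Promoter windows of 250 bases upstream of the start (RefSeq, GRCm38.p6) were available for 27 of the 37 tested interferon-stimulated genes. The response element core, read on both strands, was found in 11 of the 27 (40.7%), against 2.95% of the 10940 tested genes with a window and 2.98% of all 32851 windows. The members were listed as genes that respond to interferon, so the share of the whole list is no result of M1 against Con. The element was in 6 of the 10 members called higher that had a window and in 5 of the 17 others. These are too few to compare, and no test was run. A match is a description of the letters and not a measured binding site. The following stretches are a selection, from 3 of the 6 interferon-stimulated genes that were called higher and held the element and from B2m, in the direction of transcription, with the element in capitals:
Igtp, chr11:58199492-58199555, plus strand: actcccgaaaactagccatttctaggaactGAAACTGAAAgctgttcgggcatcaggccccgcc
Irgm1, chr11:48871421-48871480, minus strand: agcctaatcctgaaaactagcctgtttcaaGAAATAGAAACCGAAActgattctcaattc
Gbp2, chr3:142620574-142620643, plus strand: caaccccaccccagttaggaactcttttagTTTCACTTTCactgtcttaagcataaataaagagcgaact
B2m, chr2:122147518-122147587, plus strand: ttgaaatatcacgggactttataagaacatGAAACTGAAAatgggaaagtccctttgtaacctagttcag
Igtp, Irgm1, Gbp2 and B2m hold the response element core, in Irgm1 as 2 overlapping matches and in Gbp2 on the opposite strand. For B2m the match began 139 bases before the start, and for Irgm1 it began 30 bases before.

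Of 24 genes of class I antigen presentation listed, 23 were in the table and 22 passed the filter. Of these, 7 were called higher and 3 lower, with a median of 0.65, and the number higher was 2 without Con replicate 1 and 4 without M1 replicate 1. B2m, the light chain shared by class I molecules, was at 53.5, 57.9 and 43.7 FPKM in Con and at 157, 319 and 114 FPKM in M1, a log2 difference of 1.78 with a standard error of 0.36 (adjusted p = 0.0162). The class I heavy chain gene H2-D1 differed by 1.66, the immunoproteasome subunit Psmb8 by 1.47 and Nlrc5, the transactivator of class I genes, by 0.95. Class I heavy chain genes are near-identical, so the value of H2-D1 is uncertain. In MNC, B2m was at 364, 181 and 171 FPKM and H2-D1 at 39.5, 38.9 and 32.4 FPKM. The members called lower were Canx, Calr and Pdia3, chaperones of the endoplasmic reticulum. Canx fell by 0.38 and stayed called after centring, while Calr and Pdia3 did not. Of 10 genes of class II presentation, 5 passed the filter and 3 were called higher. Cd74, the invariant chain, was at 15.4, 8.74 and 9.75 FPKM in Con and at 82.2, 166 and 55.1 FPKM in M1, a log2 difference of 2.94 with a standard error of 0.40 (adjusted p = 0.0093). H2-Aa and H2-Ab1, the chains of the I-A molecule, differed by 2.29 and 1.92. Ciita, the master activator of class II genes, was below the filter at 0.02 to 0.06 FPKM in Con and 0.27 to 1 FPKM in M1.

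Chemokines draw leukocytes into tissue. Of 25 chemokine and inflammatory cytokine genes listed, 24 were in the table, 12 passed the filter, 7 were called higher and 1 was called lower. The number higher was 2 without Con replicate 1, 3 without M1 replicate 1 and 4 without Con replicate 2. Of the 24, 18 were under 1 FPKM in every Con library. Members such as Cxcl9 and Cxcl10 thus passed the filter only through libraries in which they were high. The count is therefore no support for a direction. Ccl5, a ligand for T cells, was at 1.47, 0.68 and 1.79 FPKM in Con and at 11.9, 38.9 and 4.86 FPKM in M1 (log2 difference 2.67, adjusted p = 0.0257). The chemokine gene Ccl8 differed by 2.54, at 15.1, 29.1 and 8.3 FPKM in M1 and at 27.8, 15.4 and 20.4 FPKM in MNC. Cxcl9 and Cxcl10, induced by interferon gamma, were at most 0.15 FPKM in every Con library and at 0.78 to 5.32 FPKM in the M1 libraries. Ifng itself was listed at 0 in all Con libraries and at 0.13 to 0.25 FPKM in M1, and Ifnb1 was listed at 0 in both groups. Il1a, an epithelial and macrophage cytokine, fell from 1.67 to 1.7 FPKM in Con to 1.02 to 1.08 FPKM in M1. The acute phase gene Saa3 and the surface protein gene Ly6a, both induced in inflammation, differed by 2.86 and 2.43.

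Markers of immune cells were measured beside these genes. The summed level of the 12 T and NK cell markers in the table was 9.07 to 10.2 FPKM in Con, of which Cd3d gave 6.82 to 7.88 FPKM, and 14 to 37.9 FPKM in M1. Of the 7 markers that passed the filter, 4 were called higher and none lower. Of the 12, 10 were under 1 FPKM in every Con library. Most of the tested markers thus passed the filter through libraries in which they were high. The count is therefore no support for a direction. Cd3g, a chain of the T cell receptor complex, was at 0.04, 0.04 and 0 FPKM in Con and at 1.89, 3.68 and 0.64 FPKM in M1 (log2 difference 1.45, adjusted p = 0.0249). The granule genes Gzma and Nkg7 differed by 1.53 and 1.61. Without Con replicate 1, Con replicate 2 or M1 replicate 1 no marker of this list was called. For macrophages the summed level of 18 markers was 339 to 370 FPKM in Con and 455 to 578 FPKM in M1, of which Aif1 alone gave 203 to 257 FPKM in Con and 333 to 345 FPKM in M1. Of 16 tested, 3 were called higher (Aif1, Fcgr3 and C1qb) and 1 was called lower. That gene, Mrc1, a receptor of resident macrophages, went from 9.2, 9.43 and 8.72 FPKM in Con to 6.28, 6.25 and 6.6 FPKM in M1. The defining macrophage markers Adgre1, Csf1r and Cd68 differed by 0.24, -0.25 and 0.06 and did not pass the test. Within Con, Aif1 was lowest in replicate 2 and highest in replicate 3, as were the spermatid genes Smcp and Prm2 below. The cell source of the Aif1 RNA was not tested, so its call is not a measure of macrophages. Of 5 B cell markers in the table only Jchain passed the filter, with a log2 difference of 1.98 (limma adjusted p = 0.0311). All 5 were under 1 FPKM in every Con library, so Jchain passed the filter only through libraries in which it was high. Its call is therefore no support for a direction. When 1 library was left out, it stayed called only without M1 replicate 3. Ms4a1 stayed under 1 FPKM in both groups. All 7 neutrophil markers were under 1 FPKM in both groups, and the 1 that passed the filter was not called. The part of these cells in the interferon and antigen presentation values was not tested.

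Most markers of late spermatids rose in M1. Elongating spermatids replace histones by transition proteins and protamines and build the flagellum, and their transcripts are among the most abundant in testis. All 28 listed markers passed the filter, 22 were called higher (10.3% of all genes tested), none was called lower and all 28 had a log2 difference above 0, with a median of 0.66. The number called higher was 23 after median centring, 22 after trimmed mean scaling and 14 after quantile normalization, where 1 was called lower. The count fell to 5 without Con replicate 1, 10 without M1 replicate 1 and 11 without M1 replicate 3, while the median stayed between 0.46 and 0.82 in every such fit. The spread lay mainly in Con: the summed level was 18200 to 30800 FPKM in the Con libraries and 39300 to 41600 FPKM in the M1 libraries.

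Smcp, a cysteine-rich protein of the mitochondrial capsule, was at 980, 827 and 1292 FPKM in Con and at 2383, 2291 and 2445 FPKM in M1, a log2 difference of 1.22 with a standard error of 0.15 (adjusted p = 0.00872). Prm2, a protamine that packs sperm DNA, was at 3060, 1915 and 4656 FPKM in Con and at 7621, 7477 and 7213 FPKM in M1 (log2 difference 1.30, adjusted p = 0.0212). Con replicate 2 was lowest and Con replicate 3 highest for both genes. Prm1, Tnp1 and Tnp2, which act beside Prm2 in packing DNA, had differences of 0.74, 0.65 and 0.55 that did not pass the test (adjusted p = 0.0534, 0.0661 and 0.0788). After quantile normalization Prm1 and Tnp2 were at -0.11 and -0.17. The outer dense fibre gene Odf1 differed by 1.04, Oaz3, a regulator of polyamines in spermatids, by 0.97, and Odf2 by 0.35. Round spermatid markers moved less: 10 of 25 were called higher and 2 lower, with a median of 0.11. The number higher was 5 without Con replicate 1 and 6 without M1 replicate 1. Catsper1, a channel subunit of the sperm tail, went from 67.8, 68 and 65.8 FPKM in Con to 90.2, 90.8 and 92.2 FPKM in M1 (log2 difference 0.43, adjusted p = 0.00542), and Izumo3 differed by 0.41. The members called lower were Tex101 at -0.41 and Dpy19l2 at -0.17. After quantile normalization 7 were called higher and 5 lower. Of 21 genes of the acrosome and of sperm-egg fusion, 7 were called higher, among them Zp3r and Crisp2, and 3 lower, with 6 and 5 after quantile normalization and 2 and none without Con replicate 1.

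Of 4 genes whose proteins the study assayed as signs of spermatogenesis, Tnp1 among them, 2 were called. The study assayed these proteins in testes after M5 knockdown, that of Fscn1 in its phosphorylated form. The values here are of transcripts in M1 and Con testes. Pgk2, the glycolytic kinase of spermatids, rose from 394, 336 and 443 FPKM in Con to 561, 531 and 516 FPKM in M1 (log2 difference 0.46, adjusted p = 0.0197). Crem, the transcription factor that drives spermatid genes, was called at 0.16 (adjusted p = 0.0294). Fscn1 passed the test only after centring, another scaling or removal of the GC trend, and neither Pgk2 nor Crem was called without Con replicate 1 or M1 replicate 1. The palindrome TGACGTCA, which CREM and its relatives bind, was found in none of the 25 elongating spermatid markers with a promoter window and in 2.94% of tested genes, which says only that these letters are not in these windows.

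Called markers of earlier germ cells were mostly lower by small amounts, as were the calls among all genes. Of 28 spermatocyte markers, 13 were called lower and 4 higher (23.9% and 10.3% of all genes tested), with a median of -0.21, and after centring the counts were 5 and 4. The number lower was 5 without M1 replicate 1, 6 without Con replicate 1 and 7 without M1 replicate 3. Spo11, the nuclease that starts meiotic recombination, was at 31.4, 25.3 and 33.3 FPKM in Con and at 19.1, 18.2 and 18.3 FPKM in M1 (log2 difference -0.66, adjusted p = 0.0104). Syce2, a part of the synaptonemal complex, moved the other way, from 114, 109 and 124 FPKM to 155, 159 and 154 FPKM. Of 22 tested genes of the piRNA pathway, which silences transposons in germ cells, 14 were called lower and none higher, with a median of -0.27. After centring 5 were lower and 2 higher, and without single libraries 5 (Con replicate 1) to 12 (M1 replicate 2) were lower. The PIWI protein gene Piwil2 fell from 47.4, 47.6 and 45.7 FPKM in Con to 34.3, 36.6 and 33.8 FPKM in M1 (log2 difference -0.42, adjusted p = 0.00762). Piwil1, also a spermatocyte marker, fell by 0.41 and Mov10l1, a helicase of the pathway, by 0.41. Of 16 tested spermatogonia markers 5 were called lower, a share near that of all genes, and none higher, and only Id4, at -0.38, stayed called after centring. None was called without Con replicate 1.

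**Figure D3:**
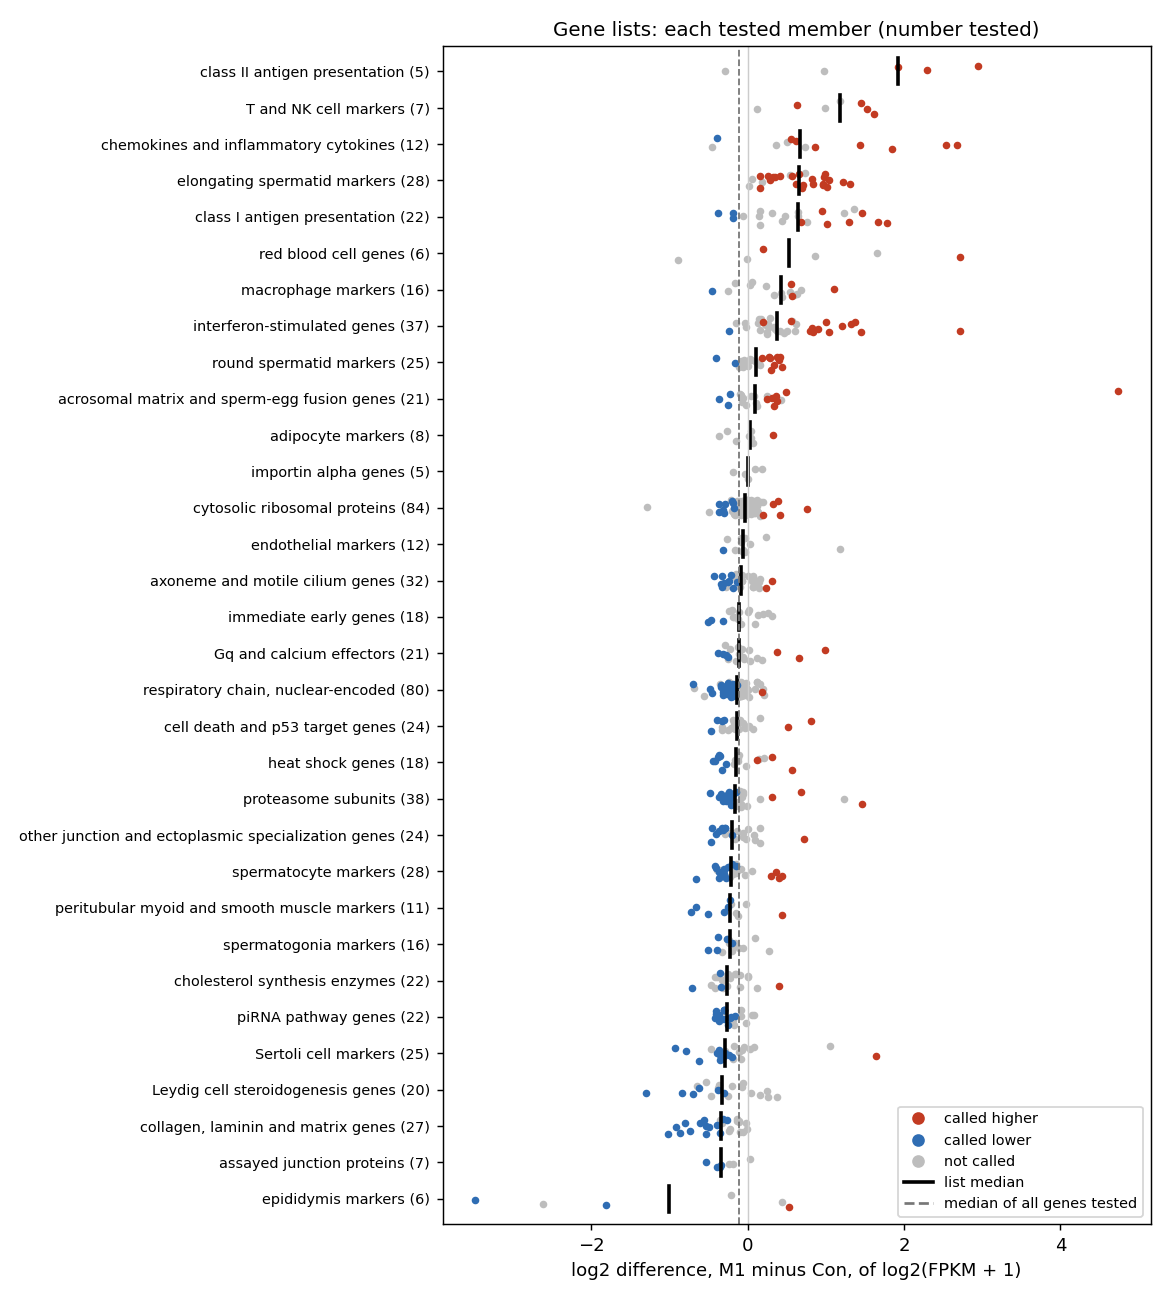
Log2 difference between M1 and Con (horizontal axis) of every tested member of each gene list with 5 or more tested members, with the number tested in brackets. Points are genes, coloured by call, black bars are list medians and the dashed line is the median of all genes at -0.115; class II, T and NK cell, chemokine, elongating spermatid and class I genes lie to the right and epididymis, junction, matrix, Leydig and Sertoli genes to the left.

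Genes of the somatic cells of testis were called lower more often than higher, as were all genes tested. Of 27 tested collagen, laminin and other matrix genes, 14 were called lower and none higher (23.9% and 10.3% of all genes tested), and no member had a difference above 0. The median was -0.34, and 8, 9 and 9 members were called lower after median centring, quantile normalization and trimmed mean scaling, with none higher. Without single libraries the count ranged from 7 (without Con replicate 1) to 18 (without Con replicate 3). Eln, which encodes elastin, was at 8.68, 9.24 and 7.75 FPKM in Con and at 3.29, 3.44 and 4.49 FPKM in M1 (log2 difference -1.02, standard error 0.11, adjusted p = 0.00769). Col4a1 and Lamb1, parts of basement membranes, fell by 0.92 and 0.86. Sparc, a protein that binds collagen, was at 229, 230 and 216 FPKM in Con and at 151, 161 and 153 FPKM in M1. The fibrillar collagen gene Col1a1 and the proteoglycan gene Dcn did not pass the test, at -0.35 and -0.32. In MNC, Eln was at 6.71, 6.03 and 2.99 FPKM, so that M1 and MNC overlapped.

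Sertoli cell markers were called lower in 13 of 25 tested genes and higher in 1, with a median of -0.29. After median centring 3 were lower and 2 higher, and without Con replicate 1 the uncentred counts were 2 and 1. Inha, the alpha subunit of inhibin, was at 101, 103 and 85.5 FPKM in Con and at 50.4, 49.1 and 50.3 FPKM in M1, a log2 difference of -0.93 with a standard error of 0.08 (adjusted p = 0.00542). Shbg, which binds androgens, fell by 0.79 and the hormone gene Amh by 0.63, and both stayed called after centring. Sox9, a transcription factor of Sertoli cells, fell by 0.36 and did not. Ptgds, a prostaglandin synthase, rose from 28.6, 27.4 and 28 FPKM in Con to 99.5, 97.6 and 74.6 FPKM in M1 (log2 difference 1.65, adjusted p = 0.00524), and was at 69.3, 65 and 68.6 FPKM in MNC.

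Of the junction proteins the study assayed, 7 of 9 genes passed the filter and 4 were called lower, with 1 without Con replicate 1 or M1 replicate 3. The study assayed these as proteins after M5 knockdown, while the values here are of transcripts in M1 and Con testes. Gja1, the gap junction protein connexin 43, was at 22, 24 and 17.5 FPKM in Con and at 14.8, 13.8 and 14.2 FPKM in M1 (log2 difference -0.53, adjusted p = 0.0182). Ctnnd1, a catenin, fell by 0.35. Ocln and Cldn11, strand proteins of tight junctions, fell by 0.39 and 0.34 and were not called after centring. Gja4, F11r and Tjp1 differed by -0.24, -0.19 and 0.03 and did not pass the test, and Cdh1 and Phldb2 were below the filter. Of 24 other junction genes tested, 9 were called lower and 1, the claudin gene Cldn3, was higher, with 4 and 2 after centring. The number lower was 4 without Con replicate 1, M1 replicate 1 or M1 replicate 3 and 5 without Con replicate 2.

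Leydig cell steroidogenesis genes were called lower in 6 of 20, a share near the 23.9% of all genes tested, and higher in none, with a median of -0.33 (3 lower and 1 higher after centring). Lhcgr, the receptor for luteinizing hormone, was at 11.4, 12.4 and 8.85 FPKM in Con and at 3.71, 4.06 and 3.54 FPKM in M1, a log2 difference of -1.31 with a standard error of 0.12 (adjusted p = 0.00643). The MNC libraries were at 9.13, 6.14 and 4.15 FPKM, all above M1 and with the first inside the Con range. Cyp17a1, the enzyme that makes androgen precursors, fell by 0.84 and Fdx1, the electron donor of mitochondrial steroid enzymes, by 0.70. Cyp11a1 and Star, which start steroid synthesis, differed by -0.64 and -0.53 and did not pass the test, and the Leydig cell hormone Insl3 differed by 0.04 (-0.22 after quantile normalization). Without Con replicate 1 only 1 gene of this list was called. Of 22 tested cholesterol synthesis genes 3 were called lower and 1 higher, with 9 lower without M1 replicate 2, 7 with the replicate block and 1 without Con replicate 1, Con replicate 2, M1 replicate 1 or M1 replicate 3. Of 11 smooth muscle and peritubular myoid markers 6 were called lower, led by Tpm1 at -0.73, and 1, Actg2, was called higher, with 3 and 1 after centring and 3 and none without Con replicate 1. Actg2 was at 138, 119 and 154 FPKM in Con and at 181, 180 and 194 FPKM in M1, and the cell source of its RNA was not tested. Of 12 endothelial markers only Cldn5 was called, at -0.32, and it was not called after centring.

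Most markers of the epididymis, the duct attached to the testis, were lower in M1 than in Con, but their full sum was not. All 21 summed to 220 to 252 FPKM in Con and 252 to 284 FPKM in M1. Cst8 alone gave 166 to 217 FPKM in Con and 244 to 275 FPKM in M1. Of 21 markers 17 had a higher mean in Con than in M1, and 7 were at 0 in every M1 library. Without Cst8, which testis also expresses, the other 20 markers summed to 54.4, 78.6 and 34.7 FPKM in Con, 7.88, 7.54 and 9.67 FPKM in M1 and 5.05, 8.92 and 6.57 FPKM in MNC. M3 replicate 1 reached 42.7 FPKM. Only 6 markers passed the filter, of which 2 were called lower and Cst8 was called higher. Without M1 replicate 1 none was called lower. Crisp1, a secreted protein of the epididymis, was at 32.3, 2.86 and 12.2 FPKM in Con and at 0.09, 0.03 and 0.06 FPKM in M1 (log2 difference -3.49, standard error 0.71, adjusted p = 0.0166). Spink8, a protease inhibitor, fell by 1.81. Gpx5 was at 0.27, 43.3 and 4.64 FPKM in Con and at most 0.31 FPKM in M1, and did not pass the test (adjusted p = 0.12). The part of epididymal RNA in the other differences was not tested.

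The globin genes gave opposite signs between near-identical copies. Hbb-bs was at 0, 0.08 and 0.09 FPKM in Con and at 3.77, 25.4 and 1.67 FPKM in M1 (log2 difference 2.72, adjusted p = 0.0394), while Hbb-b1 was at 28.5, 20.3 and 46.9 FPKM in Con and at 9.39, 1.95 and 9.2 FPKM in M1 (log2 difference -2.20, adjusted p = 0.0264). Hbb-bs passed the filter only through libraries in which it was high. Hbb-b2 fell by 1.81. These are beta-globin genes of different haplotypes that mouse stocks carry. Summed over the 4 adult beta-globin entries, Con was at 34.1, 25.1 and 56.7 FPKM and M1 at 15.2, 31.6 and 13 FPKM, and the groups overlapped. The list of red blood cell genes does not hold Hbb-b1 and Hbb-b2. Of its 6 tested members Hbb-bs and Bpgm were called higher, and neither was called without M1 replicate 1, Con replicate 1 or Con replicate 2. Of 8 adipocyte markers only Adipoq was called, at 0.32.

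Lists of the general machinery of the cell had medians close to that of all genes. The balance of calls turned with the scaling for ribosomal, axoneme and immediate early genes, and did not turn for proteasome and heat shock genes. Of 80 tested nuclear genes of the respiratory chain 28 were called lower and 1 higher, with a median of -0.13, and after centring 4 were called in each direction. The number lower was 4 without Con replicate 1, 7 without M1 replicate 1, 8 without M1 replicate 3 and 9 without Con replicate 2. Of 38 proteasome subunits 16 were called lower and 3 higher, with 6 lower without Con replicate 1, 7 without Con replicate 2 or M1 replicate 3 and 8 without M1 replicate 1. The counts were 4 and 3 after centring, and Psmb8 and Psmb10, subunits of the immunoproteasome, were among those higher. Of 84 cytosolic ribosomal protein genes 8 were called lower and 5 higher, turning to 1 lower and 13 higher after centring and to 21 lower and 5 higher after quantile normalization. None was called without Con replicate 1, and 2 lower and 2 higher were called without M1 replicate 1, 3 and 3 without M1 replicate 3, 2 and 5 without Con replicate 2, and 5 and 3 without Con replicate 3. Of 32 axoneme genes 10 were called lower and 2 higher, turning to 1 and 5 after centring, and with 5 lower without Con replicate 1. Of 18 heat shock genes 7 were called lower and 3 higher, with 3 and 3 after centring and 3 lower and none higher without Con replicate 1. Hsp90b1, a chaperone of the endoplasmic reticulum, went from 280, 295 and 278 FPKM in Con to 215, 212 and 214 FPKM in M1 (log2 difference -0.41, adjusted p = 0.00644). Of 18 immediate early genes 3 were called lower and none higher, turning to 2 lower and 4 higher after centring. Of 24 cell death and p53 target genes 4 were called lower, with Trp53 itself at -0.33, and 2 higher, the necroptosis effector Mlkl at 0.81 and Casp1 at 0.51, with none called without Con replicate 1. None of the 5 tested importin alpha genes was called, and 1 was called higher after centring.

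Of the Gq and calcium effectors, which act downstream of the M1 receptor, 21 of 25 passed the filter, 3 were called higher and 4 lower, with a median of -0.11. After centring 5 were higher and none lower. Without Con replicate 1 none was higher and 2 lower, and without M1 replicate 1 the counts were 1 and 2. Itpr3, a calcium channel of the endoplasmic reticulum opened by IP3, was at 9.16, 6.63 and 12.2 FPKM in Con and at 19.2, 18.2 and 19.3 FPKM in M1 (log2 difference 0.98, adjusted p = 0.014). The kinase gene Prkcd differed by 0.66. Gnaq, the alpha subunit of Gq, was at 3.02, 2.68 and 3.07 FPKM in Con and at 1.96, 2.31 and 1.81 FPKM in M1, and its log2 difference of -0.38 was not called after centring. Of 11 genes for acetylcholine synthesis, breakdown and transport 3 passed the filter and none was called.

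The most abundant called genes were Prm2, Smcp, Oaz3, Odf2 and the glutathione transferase Gstm5 among those higher. Gstm5 was called at 0.34, but its difference was -0.02 after quantile normalization. Among those lower they were the tubulins Tuba3a and Tuba3b, whose sequences are near-identical, the dynein light chain Dynlt1b, the radial spoke gene Rsph1 and the nucleolar gene Lyar, at -0.21 to -0.40. Of these only Tuba3a was called after centring. Across the 13257 tested genes with a transcript length, Spearman's rho of the log2 difference with length was -0.109 and with GC content -0.003, given as a description since genes are not independent. Called genes that were higher had a median transcript length of 2522 bases and those lower of 3489 bases.

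M1 against MNC tested whether M1 differed from the control virus. No gene was called by limma in this comparison, and 862 genes (5.94% of 14514) had an unadjusted p under 0.05. The lowest adjusted p was 0.14 over all genes and 0.819 among the genes named by rule. The study itself reported genes increased and genes decreased by the M1 shRNAs, using DEGseq on read counts and another threshold. For Coil, Zp3r, Cd74, Smcp and Inha the M1 minus MNC differences were -0.12, 0.20, -0.18, 0.07 and -0.17, while the M1 minus Con differences of the same genes were -5.04, 4.74, 2.94, 1.22 and -0.93. The list medians of M1 minus MNC were 0.05 for elongating spermatid markers, -0.36 for interferon-stimulated genes, -0.14 for class I genes, -0.21 for matrix genes and -0.23 for Leydig cell genes. At an unadjusted limma p under 0.05, 0 of 28, 9 of 37, 1 of 22, 3 of 27 and 6 of 20 members of these lists were lower in M1. None was higher at that p, and none was called after adjustment. The share over all genes, in either direction, was 5.94%. An adjusted p above the threshold does not show that M1 and MNC were alike, since 3 libraries of each group entered and the MNC libraries spread widely for several genes. Kpna2, an importin, was at 112, 9.39 and 87.5 FPKM in MNC against 2.09, 1.49 and 1.83 FPKM in M1 and 1.2, 1.88 and 1.32 FPKM in Con, with an adjusted p of 0.819 between M1 and MNC. Without MNC replicate 2, Kpna2 was called by limma (log2 difference -5.16, adjusted p = 0.00292).

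**Figure D4:**
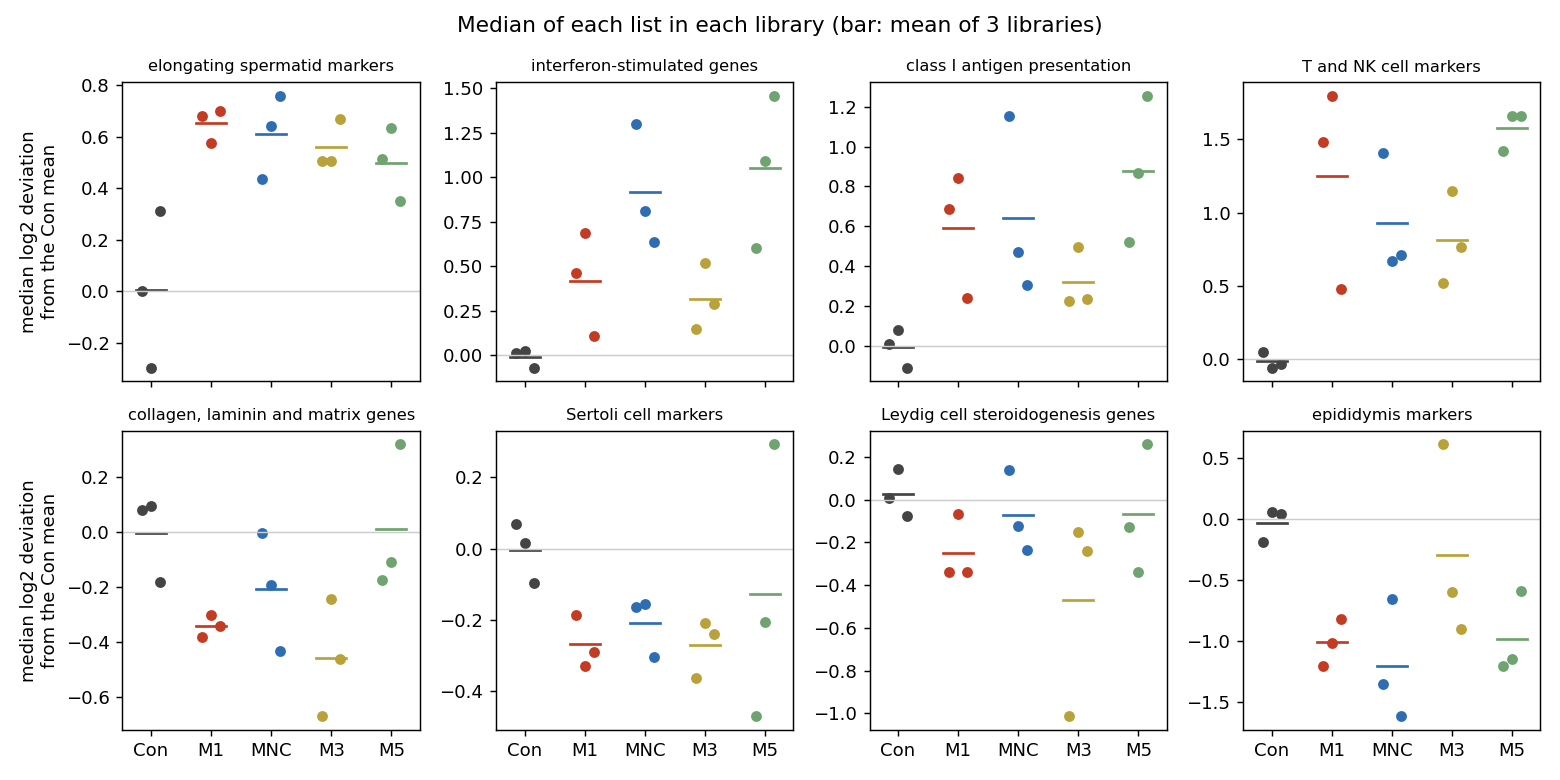
Median over the tested members of 8 gene lists of the deviation of log2(FPKM + 1) from the gene's Con mean (vertical axis, scaled for each panel), for each of the 15 libraries by group (horizontal axis), with a bar at the mean of 3 libraries. For elongating spermatid markers the M1 libraries lie at 0.58 to 0.70 and all injected groups lie above the Con mean, and for interferon-stimulated genes M1 ranges from 0.11 to 0.68 beside 0.64 to 1.30 in MNC.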

How the data were processed

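Poly(A) RNA of whole testis was sequenced on an Illumina HiSeq, and per the labels the genome build was mm10. The deposited table holds FPKM per gene and library as computed by the authors, whose methods name SOAPaligner for alignment and RPKM as the expression measure. The counting and the annotation are not given in the sources used here. The study's test (DEGseq) models read counts, so limma took its place. IDs were named by RefSeq (21143 of 23510 matched). The test covered genes averaging at least 1 FPKM across all 15 libraries, on log2(FPKM + 1), a pseudocount of 1, so that fold changes of low genes are understated. limma 3.58.1 (R 4.3.3, lmFit and eBayes with trend, two-sided) was fitted to 3 M1 and 3 Con libraries, and separately to M1 and MNC, with Benjamini-Hochberg adjustment and a threshold of 0.05. The script was checked on simulated data. Chrm1 was tested by exact permutation. Read totals are not used here, so no depth or counting error can be given.

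Named genes were, among called genes whose groups did not overlap, the 12 with the largest difference in each direction, 2 unnamed IDs per direction, the 5 most abundant called genes per direction and, of each list, up to 5 called members per direction by lowest p (3 where none was called, every member of lists of up to 9 genes). Genes added for their role in a pathway or their position were chosen after their values were seen. The comparison and the lists were chosen with earlier results of these data known. List symbols not found in the table were not used here.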

Additional observations from a re-analysis of the deposited data

How the results depend on the processing

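Groups had 3 libraries, too few for a test of outlying libraries. Of the 4969 calls, 1 gene, Coil, passed the study's threshold (adjusted p of 0.001 or less and a log2 difference of 1 or more). Against 4969 genes and 30.1% higher, median centring gave 3071 calls (72.7% higher), trimmed mean scaling 3239 (61.9%), quantile normalization 3456 (45.0%), removal of a GC trend, which also centres each library, 3530 (59.8%) and a fit of all 5 groups 2906 (40.9%). Leaving out 1 library gave 1259 to 4386 calls, 30.2% to 42.9% of them higher. The alternatives chosen after seeing the data gave 2081 genes called in the same direction under 4 scalings and 174 called with a log2 difference of 1 or more. The other pseudocount, the filters and the fit without trend kept the count within 3563 to 5014. After quantile normalization Gstm5 reversed (-0.02), as did Prm1 (-0.11), Tnp2 (-0.17) and Insl3 (-0.22), which were not called. Without 1 library, Insl3 ranged from -0.04 to 0.17 and Cd68 from -0.19 to 0.27, and Tjp1 from -0.01 to 0.08, none of them called.

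Same-numbered Con and M1 libraries deviated together with correlations of 0.083, 0.193 and 0.077, against -0.157 to 0.114 for the other pairs. Con replicates 1 and 2 correlated best with the M1 library of the same number, and Con replicate 3 with M1 replicate 1 (0.114). Nothing in the study states a pairing, so the main fit used no block. With the replicate number as a block 4132 genes were called (33.5% higher), and 2687 (67.7%) with the replicate block and the GC trend removed.

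M1 against MNC gave 3 genes with a filter of 0.1 (Ctrc and 2 unnamed IDs), 1 unnamed ID with a filter over the 6 libraries, 5 genes with no filter (Gm15056, Ctrc, Spp2, Ctf2 and 1 unnamed ID), 2 unnamed IDs with a pseudocount of 0.1, and 0 to 12 without 1 library, the highest being without MNC replicate 2, Kpna2 among them. These genes, and Coil as the only gene past the study threshold, were named after their values were seen. The Chrm1 difference was 0.008 against MNC in place of Con, and -0.047 to -0.006 against Con without 1 library. What depth limits cannot be given from FPKM.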
